A study of Mus musculus with 6 samples.

Results

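The genes described here are 36 genes of the integrated stress response and of serine and one-carbon metabolism, listed by symbol because they are known targets of the transcription factor Atf4 or respond to mitochondrial dysfunction. All 36 were found by symbol among the 24054 genes of the count table. Of these, 33 passed the filter on low counts and were tested in 1 fit of 14568 genes, and the remaining 3, Trib3, Gdf15 and Fgf21, are given by their counts. RNA-seq was performed on the dissected substantia nigra (SN) from 3 littermate controls and 3 MitoPark mice, which the labels place at 16 to 17 weeks of age on a C57BL/6 background and describe as untreated. MitoParks carry Cre at the dopamine transporter locus together with loxP-flanked Tfam alleles (Dat+/Cre, TFAM LoxP/LoxP), so that the gene for mitochondrial transcription factor A is deleted in cells that express the transporter. By the study's methods the controls lack Cre but carry 1 loxP-flanked Tfam allele (Dat+/+, TFAM +/LoxP). Cre therefore acts in dopaminergic (DAergic) neurons, whereas the RNA came from all cells of the dissected SN. In such bulk RNA, fewer cells of a type and less RNA per cell cannot be told apart.

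The integrated stress response begins when a kinase phosphorylates the initiation factor eIF2, which lowers overall translation and favours translation of Atf4 mRNA. Atf4, often as a dimer with a C/EBP protein, then activates genes for amino acid synthesis, amino acid transport and tRNA charging, together with Ddit3 and the feedback inhibitor Trib3. When mitochondrial gene expression fails, this programme is known in several tissues to include the enzymes that make serine and the mitochondrial enzymes that carry its carbon on folate, as well as the secreted factors Gdf15 and Fgf21. Since Atf4 itself is controlled largely at translation, its mRNA level is not a full reading of its activity.

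Atf4 dimers bind a composite C/EBP and Atf element, whose core is TGATGNAA. The 250 bases before the start of each gene were searched for it on both strands in RefSeq promoters (build GRCm38.p6). Of the 29 members with an entry, 9 held the core, or 31%, against 3.91% of all 27025 genes with an entry. Known Atf4 targets were put on the list as such, so the larger share can follow from how the list was made. The matches are descriptions of letters and not of binding. The following 30-base stretches, shown as examples of the element in genes described below, are written 5′ to 3′ on the gene's strand with the core in capitals. TTGCATCA is the same core read from the opposite strand.

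Chac1: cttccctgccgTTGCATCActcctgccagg
Asns: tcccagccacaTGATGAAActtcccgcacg
Nupr1: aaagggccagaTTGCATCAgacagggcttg
Pycr1: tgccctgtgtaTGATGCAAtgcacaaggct
Fgf21: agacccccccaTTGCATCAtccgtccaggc
Slc7a11, farther from the start: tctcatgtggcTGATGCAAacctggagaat
Slc7a11, nearer to the start: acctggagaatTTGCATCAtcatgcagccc

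They lie at chr2:119351038-119351067 (plus strand) for Chac1, chr6:7693214-7693243 (minus) for Asns, chr7:126625562-126625591 (minus) for Nupr1, chr11:120643833-120643862 (minus) for Pycr1, chr7:45615611-45615640 (minus) for Fgf21, and chr3:50443661-50443690 and chr3:50443642-50443671 (minus) for Slc7a11. Slc7a11 was the member with 2 copies, which face each other and begin 66 and 47 bases before its start. Gars and Pck2 held the core as well. The 8 tested members with the core differed between MitoParks and controls by a median of -0.01 on the log2 scale, and the 18 tested members with an entry but without the core by a median of 0.04.

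Libraries held between 8140777 and 10528602 expected counts per mouse. Values below are TMM-normalized CPM, which scale each count to the size of its library. Tfam was lower in every MitoPark, at 32.9 ± 0.284 CPM (SD, n = 3) against 43.3 ± 2.7 CPM in controls (SD, n = 3; log2 fold change -0.40, adjusted p = 0.999 by edgeR). Th and Slc6a3, the gene of the dopamine transporter, mark DAergic neurons and were detected in all 6 mice. However, Slc6a3 was at 383 CPM in littermate control 3 and between 65.2 and 72.5 CPM in the other controls. MitoParks had 13.3 to 51.0 CPM. The numbers of members past the cutoffs, past the test and with non-overlapping groups, and the members' median, were therefore also computed without each mouse in turn.

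None of the 33 tested genes differed between MitoParks and littermate controls past the study's cutoffs, read as a difference of over 1.5-fold with an unadjusted p below 0.05. Across all 14568 genes tested, 0.577% passed them. Without the fold cutoff, again 0 of 33 members had an unadjusted p below 0.05 by edgeR's quasi-likelihood test, against 1.11% of all genes, and DESeq2's Wald test also gave 0. The smallest adjusted p of any gene in the table was 0.999. Among the members, 22 were higher and 11 lower in MitoParks, beside 7077 higher and 7491 lower over all genes tested. The median log2 fold change was 0.04 for the members and -0.0047 over all genes tested. Eif4ebp1, counted as higher, passed the low-count filter only through the MitoParks (mean 0.887 CPM in controls, 1.02 CPM in MitoParks). Trib3, lower in MitoParks, did not pass it. Without that filter, 22 members were higher and 12 lower. For 23 of the 33 the log2 fold change was smaller than 0.1 in either direction. Without littermate control 1 the median was -0.02, with 14 members higher and 19 lower, so the excess of higher members rested on that mouse.

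The 95% intervals of the fold changes give the sizes of difference that 3 mice per group leave possible. All 33 intervals included no difference. In 26 of 33 members (78.8%) the whole interval lay below a 1.5-fold increase, and in 25 (75.8%) it lay within 1.5-fold in both directions. Across all genes tested these shares were 76.7% and 66.5%, so the members were measured about as tightly as other genes, with a median standard error of 0.134 on the log2 scale against 0.157. The 7 members whose interval reached a 1.5-fold increase were Nupr1, Cebpb, Eif4ebp1, Pycr1, Cth, Chac1 and Slc7a11. All of these but Slc7a11 had between 4 and 66 counts per mouse.

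**Figure D1:**
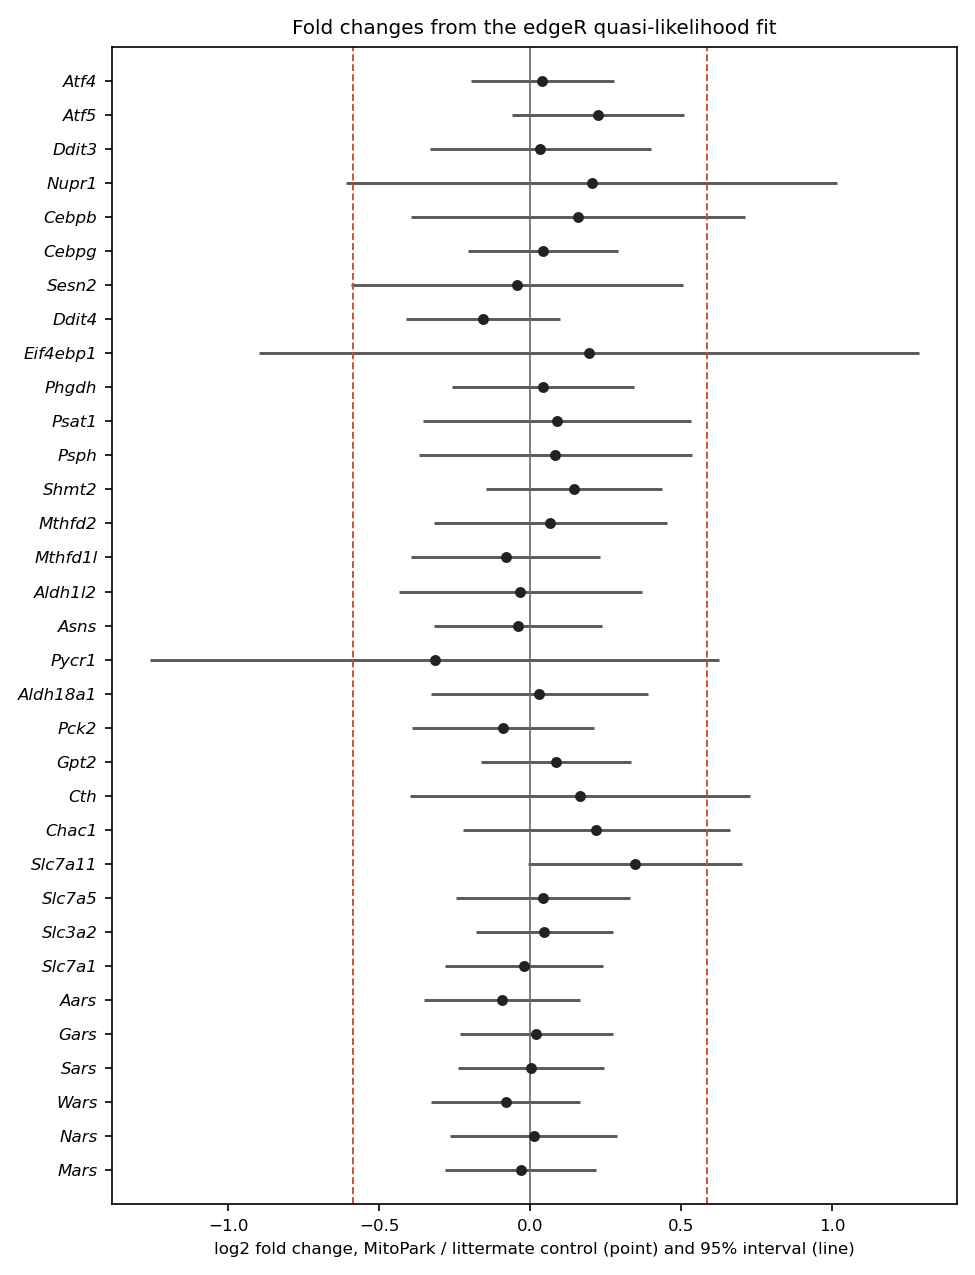
Fold change of each tested gene in MitoParks against littermate controls on the log2 scale (point, horizontal axis) with its 95% interval (line) from the fit over 3 mice per group; dashed lines mark 1.5-fold in either direction. All 33 intervals cross 0, and 25 stay between the dashed lines.

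None of the 6 transcription factors of the response passed the test, and the groups overlapped for all of them but Atf5. For Atf4, the central activator, littermate controls 1, 2 and 3 had 81.2, 97.2 and 93.2 CPM, and MitoParks 1, 2 and 3 had 90.8, 92.2 and 96.1 CPM. All values below keep this order of mice. The MitoPark values lay inside the control range, with a fold change of 1.03 (95% interval 0.872 to 1.21). Ddit3, which encodes the pro-apoptotic partner CHOP, was at 19.8, 26.9 and 27.1 CPM in controls and at 21.8, 24.8 and 29.0 CPM in MitoParks, a fold change of 1.02 (95% interval 0.794 to 1.32). Its lowest value in each group came from the mouse numbered 1, and the groups overlapped. Cebpg, a dimer partner of Atf4, had values of 54.2, 56.6 and 55.1 CPM in controls and of 51.5, 58.3 and 61.1 CPM in MitoParks, which lay on both sides of the controls. Cebpb, a C/EBP factor of inflammatory and stress responses, had values of 3.78, 5.41 and 3.81 CPM in controls and of 5.11, 4.14 and 5.32 CPM in MitoParks, all within the control range.

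Atf5, a relative of Atf4 that is linked to the mitochondrial unfolded protein response, was 1 of only 3 tested members whose groups did not overlap. It was at 20.1, 19.5 and 19.4 CPM in controls and at 23.3, 20.5 and 25.4 CPM in MitoParks. MitoPark 2 lay just above the highest control. The fold change was 1.17 (95% interval 0.960 to 1.42), with an adjusted p of 0.999 by edgeR, and the exact permutation test gave p = 0.1, the smallest that 3 mice against 3 allow. Nupr1, a small stress-induced chromatin protein, varied most among the factors, at 2.78, 2.28 and 2.93 CPM in controls and at 1.70, 2.93 and 4.53 CPM in MitoParks. MitoParks 1 and 3 lay at opposite ends, below and above all controls, so the fold change of 1.15 had a 95% interval of 0.656 to 2.02. All 6 factors had fold changes above 1, though none passed the test.

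Of the 33 tested members, 3 had groups that did not overlap (9.09%), which were Atf5 and Chac1, higher in MitoParks, and Ddit4, lower in them. Over all genes tested the groups did not overlap for 4.71%, of which 2.43% were higher and 2.28% lower in MitoParks. When scaled by total counts, Chac1 alone kept non-overlapping groups.

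The genes that restrain growth or the response itself were mixed. Ddit4, an inhibitor of mTORC1 that also responds to glucocorticoids and hypoxia, was at 42.5, 42.1 and 42.3 CPM in controls and at 36.3, 36.2 and 41.5 CPM in MitoParks. The controls were nearly equal, and MitoPark 3 lay less than 1 CPM below them. The fold change was 0.897 (95% interval 0.753 to 1.07), with an adjusted p of 0.999 by edgeR. The 6 glucocorticoid-responsive genes examined beside it differed by a median of -0.10 on the log2 scale, with 5 lower and 0 past the test, and their part in the Ddit4 values was not tested. Sesn2, another mTORC1 inhibitor, was highest in littermate control 1, at 15.2 CPM, while the other controls were at 8.35 and 9.08 CPM and the MitoParks between 8.95 and 11.4 CPM. Eif4ebp1, which blocks cap-dependent translation, had only 4 to 14 counts per mouse.

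Trib3, the pseudokinase that feeds back on Atf4, was near the limit of these libraries. It had 5, 11 and 6 counts in controls and 2, 5 and 4 in MitoParks, and stayed below the filter. No MitoPark had more counts than any control, and MitoPark 1 had fewer than 3. Without the low-count filter its log2 fold change was -0.84 with an adjusted p of 1 by edgeR. Gdf15 and Fgf21, the secreted signals of mitochondrial stress, had 0 counts in all 6 mice, among 56764420 expected counts in total. A level of 3 counts, the upper limit that a count of 0 allows, corresponds to between 0.285 and 0.365 CPM per mouse. Levels of Gdf15 and Fgf21 below that limit can therefore not be excluded at this depth. These limits cover counting error only.

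In the serine pathway, the first enzyme Phgdh was at 62.6, 67.8 and 86.1 CPM in controls and at 72.7, 71.2 and 79.2 CPM in MitoParks. Littermate control 3 was the highest and littermate control 1 the lowest, so the MitoParks lay between them (fold change 1.03, 95% interval 0.835 to 1.27). Psat1, the aminotransferase of the pathway, spread more widely, from 103 CPM in littermate control 1 to 148 and 182 CPM in the other controls. MitoParks 1, 2 and 3 were at 129, 158 and 174 CPM, again inside the control range (fold change 1.06, 95% interval 0.782 to 1.45). Psph, the phosphatase that completes serine synthesis, was at 7.34, 9.20 and 9.57 CPM in controls compared with 8.28, 11.2 and 8.16 CPM in MitoParks (fold change 1.06, 95% interval 0.774 to 1.45). Phgdh and Psat1 are known as astrocyte-rich in brain. The 6 astrocyte markers summed to between 3010 and 3600 CPM in controls and between 3210 and 3840 CPM in MitoParks, with 5 of 6 higher and 0 past the test. Their log2 fold changes ran from -0.0089 for Slc1a2, the largest part of these sums, to 0.70 for Gfap, with a median of 0.11. The part of astrocytes in the values of the serine enzymes was not tested.

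The mitochondrial one-carbon enzymes did not move together. Shmt2, which moves a carbon from serine to folate inside mitochondria, was at 14.9, 16.9 and 15.6 CPM in controls and at 18.4, 17.9 and 16.2 CPM in MitoParks. MitoPark 3 was below littermate control 2, so the groups overlapped by 1 mouse (fold change 1.11, 95% interval 0.903 to 1.35). Mthfd2, the dehydrogenase often used as a reporter of mitochondrial stress, ranged from 12.3 to 15.5 CPM in controls, on 111, 148 and 159 counts, and was at 12.1, 17.2 and 14.6 CPM in MitoParks, on 99, 170 and 129 counts. MitoParks held both its lowest and its highest value (fold change 1.05, 95% interval 0.802 to 1.37). Mthfd1l, which releases formate, was at 18.2, 19.4 and 16.3 CPM in controls compared with 15.1, 18.6 and 17.2 CPM in MitoParks (fold change 0.945, 95% interval 0.761 to 1.17). Aldh1l2, which burns the same carbon to make mitochondrial NADPH, was at 13.1, 11.3 and 14.5 CPM in controls compared with 11.2, 11.5 and 15.3 CPM in MitoParks (fold change 0.978, 95% interval 0.740 to 1.29). For all 4 enzymes the interval excluded a 1.5-fold increase.

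Among the other amino acid enzymes, Asns, which makes asparagine and is a standard readout of Atf4, was at 97.2, 94.2 and 93.0 CPM in controls and at 101, 99.1 and 76.3 CPM in MitoParks. MitoParks 1 and 2 lay above all controls and MitoPark 3 below them, giving a fold change of 0.973 (95% interval 0.801 to 1.18). Chac1, which degrades glutathione, was at 6.23, 5.60 and 6.25 CPM in controls and at 8.04, 6.46 and 6.57 CPM in MitoParks. All MitoParks were above all controls, yet MitoParks 2 and 3 were only just above them, on 56 to 66 counts per mouse (fold change 1.16, 95% interval 0.858 to 1.58, adjusted p = 0.999 by edgeR). Of the proline enzymes, Aldh18a1 was at 26.3 ± 3.11 CPM in controls (SD, n = 3) compared with 26.8 ± 4.86 CPM in MitoParks (SD, n = 3), while Pycr1 had only 6 to 17 counts per mouse. Pck2, the mitochondrial PEP carboxykinase, Gpt2, the mitochondrial alanine aminotransferase, and Cth, which makes cysteine from cystathionine, had fold changes of 0.939, 1.06 and 1.12.

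Slc7a11, the cystine importer of system xc-, was the member closest to the test's threshold. Littermate controls 1, 2 and 3 had 72.4, 51.7 and 47.2 CPM, and MitoParks 1, 2 and 3 had 71.4, 75.1 and 71.0 CPM. The MitoParks were tightly grouped and above controls 2 and 3, but littermate control 1 lay among them. The fold change was 1.27 (95% interval 0.994 to 1.63), with p values of 0.0548 unadjusted and 0.999 adjusted by edgeR's quasi-likelihood test, and p = 0.3 by the exact permutation test. Without littermate control 1 the log2 fold change was 0.56 in place of 0.35, with p values of 0.0012 unadjusted and 1 adjusted by edgeR, while an exact permutation test of 2 mice against 3 cannot go below 0.1. Without littermate control 3 it was 0.23, the lowest value with any mouse left out. Its expected counts were not whole numbers in any of the 6 mice, as RSEM gives where reads fit transcripts of more than 1 gene. Slc7a11 is known in brain chiefly from astrocytes, and the astrocyte markers given above with the serine enzymes apply here too.

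The other transporters differed by less than the spread between mice. Slc3a2, the heavy chain that Slc7a5 and Slc7a11 need at the cell surface, was at 117 ± 6.78 CPM in controls (SD, n = 3) compared with 121 ± 7.64 CPM in MitoParks (SD, n = 3). Slc7a5, which imports large neutral amino acids, was at 65.4 ± 5.34 CPM in controls (SD, n = 3) compared with 67.3 ± 9.33 CPM in MitoParks (SD, n = 3). Slc7a1, an importer of cationic amino acids, was at 73.0 ± 7.53 CPM in controls (SD, n = 3) compared with 72.0 ± 5.61 CPM in MitoParks (SD, n = 3). Slc7a5 and Slc7a1 are abundant in brain endothelium, whose 5 markers summed to between 115 and 177 CPM in controls and between 124 and 158 CPM in MitoParks.

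The 6 cytosolic tRNA synthetases, which charge tRNAs with amino acids, stayed close to the controls, with log2 fold changes from -0.09 to 0.02. Aars was at 183, 186 and 199 CPM in controls and at 188, 191 and 153 CPM in MitoParks (fold change 0.937, 95% interval 0.783 to 1.12). Wars was at 96.1, 95.9 and 98.5 CPM in controls and at 96.6, 98.2 and 80.1 CPM in MitoParks (fold change 0.946, 95% interval 0.797 to 1.12). For both, MitoPark 3 was the lowest of the 6 mice, as it was for Asns, and the other MitoParks lay within the control range. Sars, Nars, Gars and Mars had fold changes of 1.00, 1.01, 1.01 and 0.978, and no interval of the 6 reached a 1.5-fold difference.

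**Figure D2:**
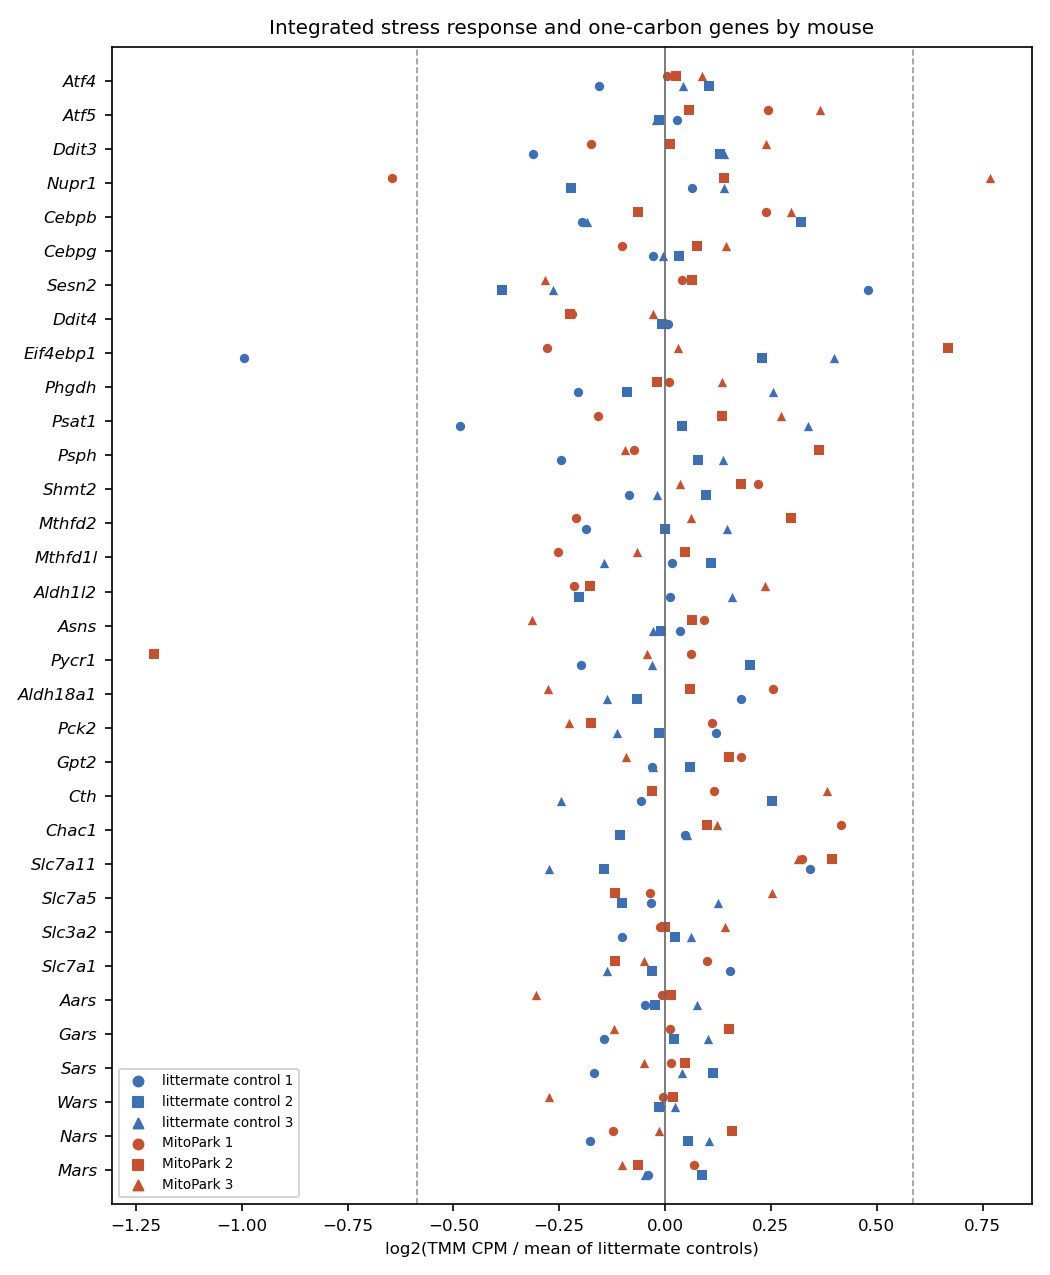
Each tested gene by mouse, as log2 of its TMM-normalized CPM over the mean of the littermate controls; blue symbols are littermate controls, red symbols MitoParks, and the symbol shape gives the mouse number, with dashed lines at 1.5-fold. Red and blue symbols overlap for 30 of the 33 genes, and the widest scatter is in Nupr1, Eif4ebp1 and Pycr1, which have 4 to 40 counts per mouse.

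The role groups were also compared mouse by mouse, as the median over each group's tested genes of log2(CPM + 0.1) relative to each gene's mean over the 6 mice. MitoPark 3 stood highest for the transcription factors, at 0.23, and for the transporters, at 0.14, but lowest for the synthetases, at -0.10, and for the amino acid enzymes, at -0.13. Littermate control 1 stood lowest for the transcription factors, at -0.13, and for serine synthesis, at -0.27, where littermate control 3 was highest, at 0.24. The order of the mice therefore differed between the groups of genes. Over all genes tested, MitoPark 3 held the highest value for 20.7% and the lowest for 21.2%, each more than any other mouse. Of the 33 members, 12 had their lowest value in littermate control 1, or more than in any other mouse, whereas 17.8% of all genes tested had theirs there. These are descriptions, and no test was made of them.

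**Figure D3:**
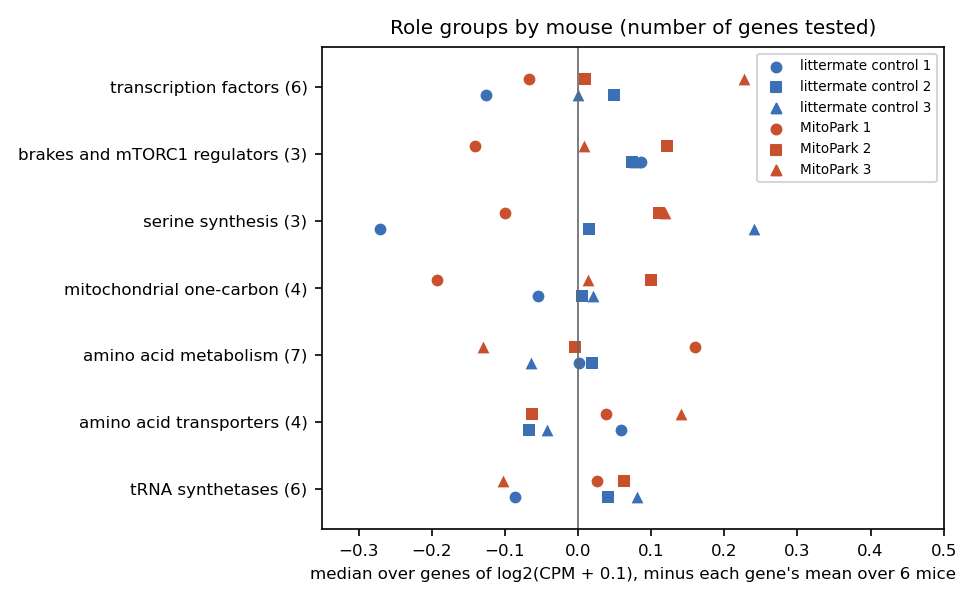
Median over the tested genes of each role group (number in brackets) of log2(CPM + 0.1), relative to each gene's mean over 6 mice, on the horizontal axis; blue symbols are littermate controls and red symbols MitoParks, with the shape giving the mouse number. MitoPark 3 is at the upper end for transcription factors (0.23) and at the lower end for tRNA synthetases (-0.10).

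Between genes, levels were set per kilobase of the longest GENCODE transcript, averaged over the 6 mice. The asparaginyl synthetase gene Nars was the highest, at 107 CPM per kb. It was followed by Sars at 58.6, Gars at 57.9, Psat1 at 56.9, Asns at 46.4 and Atf4 at 45.5 CPM per kb, and in each of these 5 the range over the mice overlapped that of its neighbour in the order. Phgdh was at 38.7 CPM per kb, far above the last enzyme of its pathway, Psph, at 3.11. The mitochondrial one-carbon enzymes were low, from 7.27 CPM per kb for Shmt2 and 6.86 for Mthfd2 to 2.13 for Aldh1l2. The lowest detected genes were Eif4ebp1 at 0.477, Pycr1 at 0.436 and Trib3 at 0.279 CPM per kb.

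**Figure D4:**
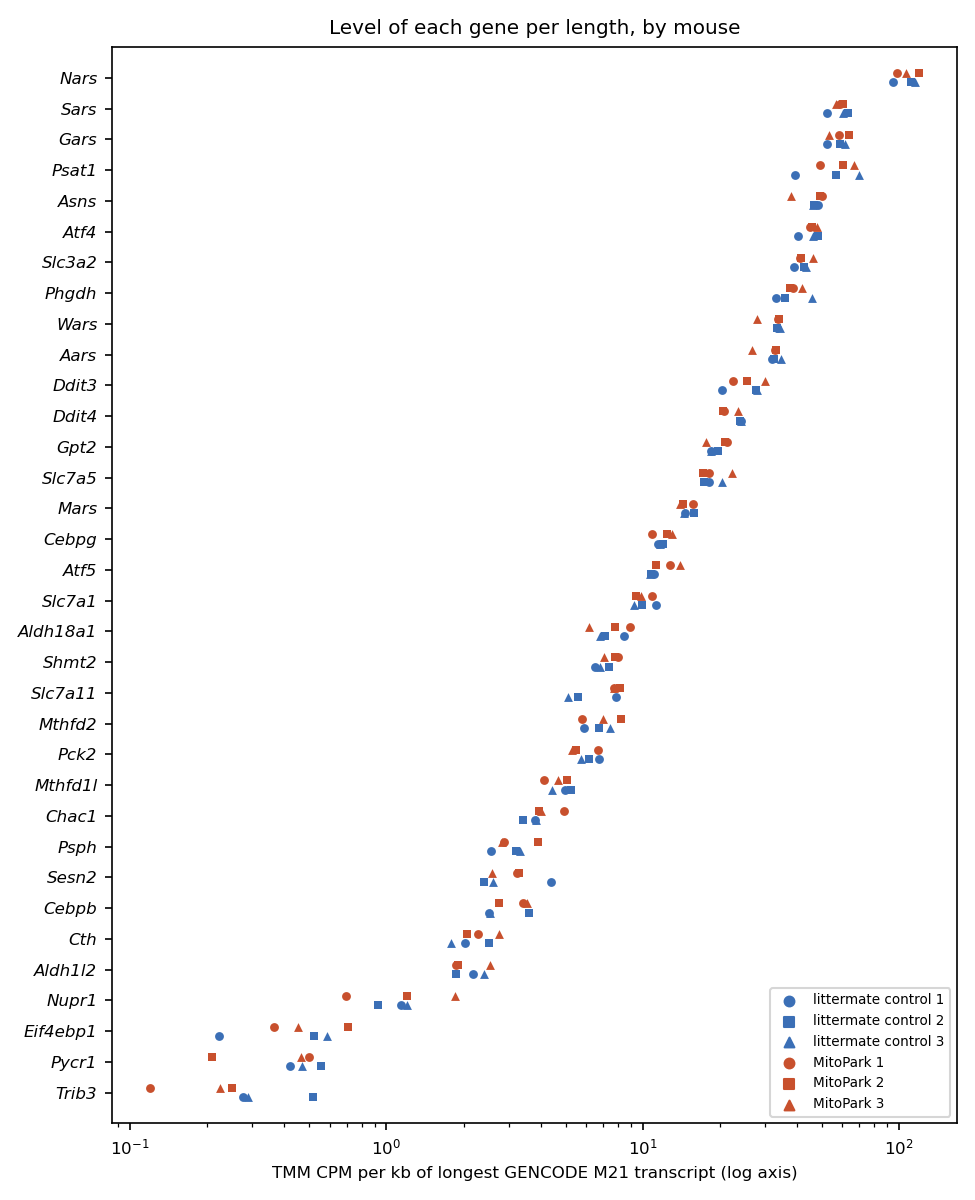
TMM-normalized CPM per kilobase of each gene's longest GENCODE M21 transcript (log axis) in each mouse, ordered by the mean over 6 mice; blue symbols are littermate controls, red symbols MitoParks, and Gdf15 and Fgf21, at 0 counts, are not drawn. Levels run from 107 CPM per kb for Nars to 0.279 for Trib3, and the mice of both groups lie close together for each gene above a few CPM per kb.

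The rest of the pathway was read from 7 further lists, with 78 genes in all, every one of them tested. Of these 78 genes, 47 were higher and 31 lower with a median of 0.03 on the log2 scale, and 1 passed the cutoffs. This was Atf3, a stress-induced partner of Atf4, at 0.779, 0.759 and 0.879 CPM in controls and at 1.34, 2.73 and 3.51 CPM in MitoParks (log2 fold change 1.64, standard error 0.427, adjusted p = 0.999 by edgeR). All MitoParks were above all controls on 7 to 31 counts per mouse, and Atf3 passed the cutoffs in 6 of 6 fits that left out a mouse. Its mean was 0.806 CPM in controls and 2.53 CPM in MitoParks, so it passed the low-count filter only through the MitoParks. The study had already named Atf3 among the top upregulated genes in these data, so these values are no independent support for it. The other 7 genes of its list of Atf4 targets did not pass the test. None of the 8 genes for the eIF2 kinases, the eIF2 phosphatase and the Oma1 and Dele1 relay passed it (median log2 fold change 0.03), nor did any of the 8 subunits of eIF2 and eIF2B (-0.01) or of the 9 ER stress genes (-0.0053). The same held for 14 further one-carbon and methionine genes (0.04), 14 further cytosolic synthetases (0.02) and 17 mitochondrial synthetases (0.03). The Oma1 and Dele1 relay is a route by which mitochondrial stress can reach an eIF2 kinase.

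In the fit with all mice, all 7 DAergic neuron markers were lower in MitoParks, with a median log2 fold change of -0.67. Only Slc6a3 passed the cutoffs (log2 fold change -2.30, standard error 0.701, adjusted p = 0.999 by edgeR, and -0.97 without littermate control 3). Slc6a3 is the locus that carries Cre in MitoParks and not in controls. An effect of the Cre allele itself on Slc6a3 therefore cannot be told apart from fewer neurons or less RNA per neuron. The 7 markers summed to between 432 and 1400 CPM in controls and between 293 and 527 CPM in MitoParks. Each of the 7 had its highest value in littermate control 3, and the groups overlapped for all but Slc6a3. Th was at 55.6, 47.4 and 159 CPM in controls and at 39.0, 57.0 and 65.5 CPM in MitoParks. Of these markers, only Slc6a3 is given without littermate control 3. The 6 microglia markers summed to between 160 and 206 CPM in controls and between 194 and 217 CPM in MitoParks, with 5 of 6 higher and C1qa, a complement gene, at an unadjusted p below 0.05 with all mice and in 3 of 6 fits that left out a mouse. C1qa was at 27.5, 29.2 and 32.6 CPM in controls and at 36.8, 33.5 and 42.7 CPM in MitoParks (log2 fold change 0.34, adjusted p = 0.999 by edgeR). The 6 oligodendrocyte markers had a median log2 fold change of 0.05 and the 5 neuronal markers one of -0.16. Among the 3 blood markers the median was 0.22, among the 3 tested choroid plexus markers -0.37, and among the 7 immediate early genes 0.13, each with 0 genes past the test. How far any of these cell types contributes to the values of the stress response genes was not tested.

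**Figure D5:**
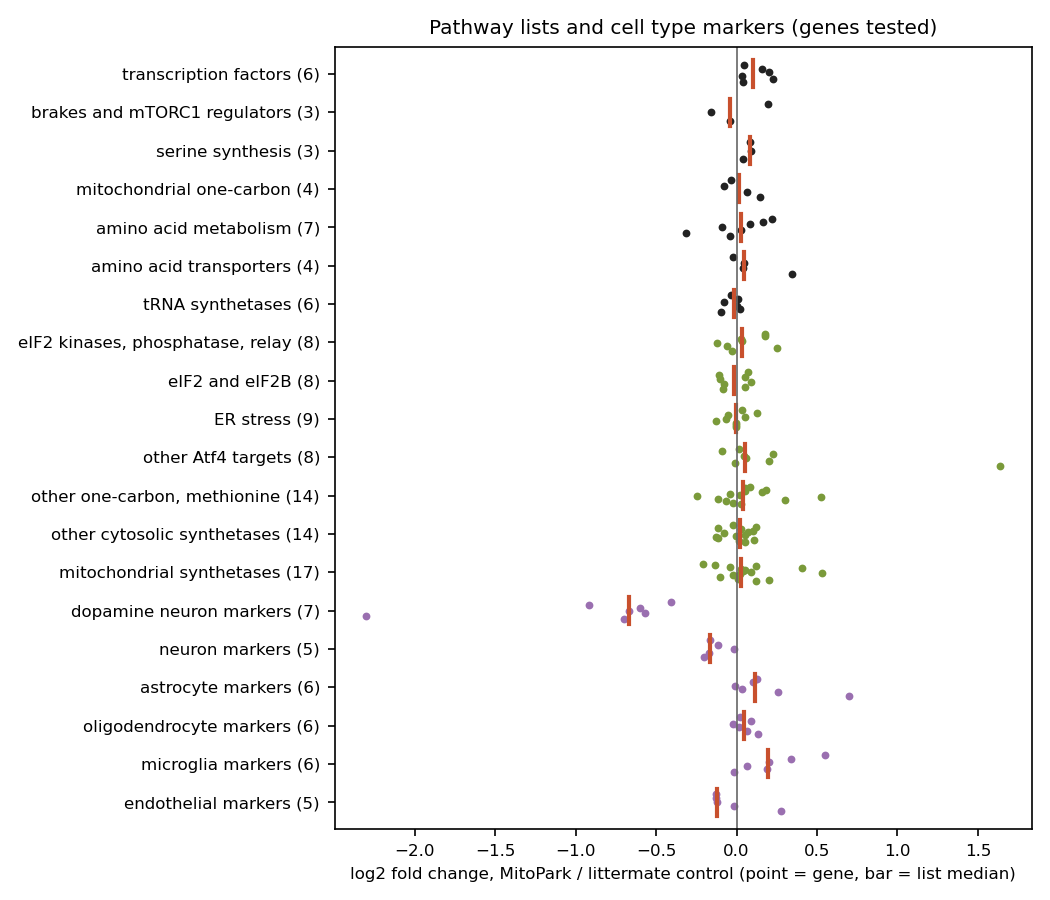
Log2 fold change in MitoParks against littermate controls of each tested gene (points) in the role groups of the 33 members (black), in further lists of the pathway (green) and among cell type markers (purple), with red bars at the list medians. The member and pathway lists have medians between -0.04 and 0.10, with Atf3 at 1.64 apart from them, and the DAergic neuron markers have a median of -0.67.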

How the data were processed

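Strand-specific libraries of polyadenylated RNA were analysed, 1 per mouse, for 3 MitoParks and 3 littermate controls. The authors mapped reads to a UCSC transcript set with Bowtie2 2.1.0, estimated reads per gene with RSEM 1.2.15 and deposited the expected counts unscaled. The submitters' processing notes name a human genome build for these mouse samples, and the build actually used is not given in the sources used here, so sequence coordinates come from RefSeq alone. Columns headed as treated were taken as MitoParks, and 0 columns belonged to no sample. The sources do not say whether the mice come from separate litters, and p-values measure only the spread between these mice.

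Here the expected counts were rounded. The 14568 genes whose mean CPM exceeded 1 in either group were kept, and edgeR 4.0.16 (R 4.3.3) fitted TMM-normalized counts by a quasi-likelihood model with group as the only term. Cutoffs follow the study's methods (p below 0.05, fold above 1.5), where they describe these RSEM counts. That passage does not say whether the p is adjusted, and it was taken as unadjusted. Another passage, on RPKM values from a different alignment, sets an adjusted p below 0.05, which no gene reached here. P-values were adjusted over the 14568 genes by the Benjamini-Hochberg method, and 95% intervals use the fit's standard errors. The fit was tested on simulated data with the same spread assumed for every gene. That does not copy the spread between these mice, so it checks the code and not the p-values given here. Exact two-sided permutation tests used log2(CPM + 0.1). Alternatives were DESeq2 1.42.0, RLE and total count normalization, 2 other filters, a block for the replicate number, and fits without each mouse. Between 11.91% and 14.11% of values per mouse were not whole, in 9 members at least once. No pair of mice within a group agreed within sampling noise (chi-square per degree of freedom 9.68 or more). The members and lists were chosen with earlier results of these data known. Every member is accounted for, and of the other lists values are given for Tfam, Th, Slc6a3 and genes with an unadjusted p below 0.05. Values are also given for Lars2, Rars2, Gfap and Slc1a2, chosen after their values were seen. Dele1 was found under a synonym. Levels per kilobase use the longest GENCODE M21 transcript. Of the promoter matches, those of Gars and Pck2 are given by name only, and 1 is not reported here.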

Additional observations from a re-analysis of the deposited data

How the results depend on the processing

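No member passed both cutoffs in any of the 6 alternatives with all mice or of the 6 fits without 1 mouse, and no tested member changed sign in the former. An unadjusted p below 0.05 was reached by 1 member with the replicate block (Slc7a11, log2 fold change 0.37, adjusted p = 1 by edgeR, where 2.22% of all genes reached it) and by 1 without the low-count filter (Slc7a11). The number ranged from 0 to 1 without 1 mouse, namely Slc7a11 without littermate control 1 and Atf5 without MitoPark 2. Of all genes, 1.26% reached it without the low-count filter, 1.65% without littermate control 1 and 4.49% without MitoPark 2. Members whose groups did not overlap numbered 1 with total count normalization, and between 3 and 7 without 1 mouse. With fewer mice, groups fail to overlap more often for any gene. The share over all genes is not given for these fits, so the higher numbers are not a result about the members. The median log2 fold change of the tested members lay between -0.0177 and 0.068 without 1 mouse, lowest without littermate control 1 and highest without littermate control 3. The replicate numbers alone do not pair the mice: same-numbered mice deviated from their groups with correlations of 0.307, -0.0738 and 0.244. Over the whole table, 84 genes passed the cutoffs. There were 126 with the replicate block, 176 without the low-count filter, and 133, 219 and 217 without littermate control 1, littermate control 3 and MitoPark 2. Lower numbers were 67 with filterByExpr, 68 with DESeq2 and 62 without MitoPark 3.

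With 1 mouse left out, 24 members took both signs, so their direction rests on single mice. Their lowest and highest log2 fold changes were -0.0273 and 0.0939 for Atf4, -0.0921 and 0.14 for Ddit3, -0.18 and 0.49 for Nupr1, -0.0096 and 0.12 for Cebpg, -0.20 and 0.28 for Sesn2, -0.0998 and 0.43 for Eif4ebp1, -0.0448 and 0.19 for Phgdh, -0.0985 and 0.29 for Psat1, -0.0776 and 0.16 for Psph, -0.0602 and 0.20 for Mthfd2, -0.15 and 0.0046 for Mthfd1l, -0.19 and 0.056 for Aldh1l2, -0.10 and 0.0785 for Asns, -0.52 and 0.0115 for Pycr1, -0.0871 and 0.16 for Aldh18a1, -0.0755 and 0.12 for Slc7a5, -0.0067 and 0.0864 for Slc3a2, -0.0849 and 0.0667 for Slc7a1, -0.14 and 0.0007 for Aars, -0.041 and 0.0834 for Gars, -0.0692 and 0.0609 for Sars, -0.13 and 0.0072 for Wars, -0.0639 and 0.0842 for Nars and -0.0728 and 0.0142 for Mars. What differed in the mouse left out was not tested.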

Other observations

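Lars2, a mitochondrial synthetase gene named after its values were seen, had 546, 657 and 637 CPM in the controls, against 343, 451 and 1860 CPM in MitoParks 1, 2 and 3. MitoPark 3, the mouse that was lowest for Aars, Wars and Asns, was thus far above every other mouse for this gene, and the other MitoParks were below all controls (exact permutation test, p = 1). The log2 fold change of Lars2 was 0.53 with an adjusted p of 0.999 by edgeR. MitoPark 3 was the highest mouse for 20.7% and the lowest for 21.2% of all genes tested, so its extreme ranks were not particular to these genes. These shares count ranks and do not cover the size of its Lars2 value.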
